A study of Homo sapiens with 13 samples.

Results

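SOX3, SOX4, SOX7, SOX8, SOX9, SOX11, SOX12, SOX13, SOX15 and SOX21 are transcription factor genes of the SOX family, and their RNA was followed in human embryonic stem cells under BMP4. These 10 genes were taken by name from both count tables, out of 61546 features, and SOX2 was kept apart as a reference. The cells were RUES2, a human embryonic stem cell line, here with a GFP::SMAD4 fusion, so that the fluorescent tag sat on the shared SMAD of the BMP and Nodal pathways. Every group carried this fusion, and every library came from this line alone. In the time series, cells received 100 ng/mL BMP4 with 5 µM IWP2, which blocks Wnt secretion, and ROCK inhibitor. They were collected at 0 h (2 libraries) and at 4, 12, 20, 28 and 42 h (1 library each). The 0 h libraries carry that treatment in their labels too and were read as cells at its start. In the dose response, the same BMP4 and IWP2 were given for 5 h with LDN-193189 (LDN), an inhibitor of BMP type I receptors, at 0, 10, 30, 100 or 300 nM (1 library each). An untreated library at 5 h had mTeSR medium without BMP4, IWP2 or LDN.

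SOX proteins bind DNA through an HMG box, a domain that bends the helix, and most act together with partner factors such as POU proteins. They are sorted into groups by that domain. SOX2 and SOX3 form much of the SOXB1 group, which maintains stem and neural progenitor cells, and SOX21 of the SOXB2 group is known as a repressor that counters them. SOX4, SOX11 and SOX12 are the SOXC group of progenitor cells, SOX13 a SOXD factor without an activation domain of its own, and SOX8 and SOX9 SOXE factors of neural crest, gonad and cartilage. SOX7 is a SOXF factor of endothelium and extraembryonic endoderm, and SOX15 the SOXG factor.

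Library totals were 37957385 to 71333471 counts in the time series and 15600931 to 33989998 in the dose response, the lowest being the untreated library. Levels are given in CPM, counts scaled to the library total, and between genes in FPKM, which also scales by gene length. A floor of 3 counts stood for 0.0421 to 0.192 CPM, and the intervals quoted are 95% Poisson intervals, which cover counting error only. RNA of the time series was depleted of ribosomal RNA and that of the dose response selected for poly(A), after different extraction kits, so levels are not compared across both sets. Mitochondrial genes took 7.60% of the counts in 0 h replicate 1 and 7.89% in the untreated library, against 2.01 to 4.49% in the others; the part of this in the results was not tested. The summed CPM of 7 pluripotency markers was 5978 and 6421 at 0 h and 3069 at 42 h. LIN28A (1806 CPM) and POU5F1 (1145 CPM) made up most of the 42 h sum. The others came down from at least 53.7 CPM each to 93.6 (DPPA4), 11.7 (TDGF1), 11.6 (SOX2), 1.08 (NANOG) and 0.196 CPM (PRDM14). The summed CPM of 8 amnion-like markers was 25.4 to 28.9 at 0 h and 6180 at 42 h, of which HAND1 had 2919 and IGFBP3 2085. Each of these markers was higher at 42 h than at 0 h. Of the 4 primitive streak markers TBXT, EOMES, MIXL1 and GSC the sum reached at most 4.69 CPM. The sum of 4 endoderm markers reached at most 5.45 CPM, and the sums of 5 neural and 5 trophoblast markers were each carried by 1 gene. OTX2 went from 71.8 and 76.3 CPM at 0 h to 0.686 CPM at 42 h, and SDC1 from 62.5 and 72.5 to 8.51 CPM. The other neural (SOX1, PAX6, ZIC1 and LHX2) and trophoblast markers (CGA, CGB5, GCM1 and ELF5) were under 1 CPM at both times. In these bulk samples, fewer cells of a type and less RNA per cell cannot be told apart.

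Per gene length, SOX12 and SOX4 were the most abundant of the 10 genes before treatment, and SOX7 the least. The mean at 0 h was 83.1 ± 14.4 FPKM (SD, n = 2) for SOX12 and 80.9 ± 2.09 FPKM for SOX4, whose libraries overlapped (72.9 and 93.3 against 79.4 and 82.4). SOX13 followed with 49.8 ± 4.47 FPKM and SOX11 with 24.0 ± 1.57 FPKM. SOX3 at 10.4 ± 0.212 FPKM and SOX9 at 9.36 ± 1.50 FPKM were not separated by their libraries. Below them stood SOX21 (6.75 ± 0.198), SOX15 (3.99 ± 0.707), SOX8 (2.24 ± 0.0778) and SOX7 (0.655 ± 0.177), each pair of neighbours apart in both libraries. SOX2 stood above all of them at 171 ± 4.65 FPKM. At 42 h the order was led by SOX4 (111 FPKM), SOX13 (66.7), SOX12 (42.1) and SOX9 (19.1). SOX2 had come down to 5.17 FPKM, below SOX15 (8.32) and SOX11 (7.57), while SOX8 was lowest with 0.200 FPKM.

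**Figure D1:**
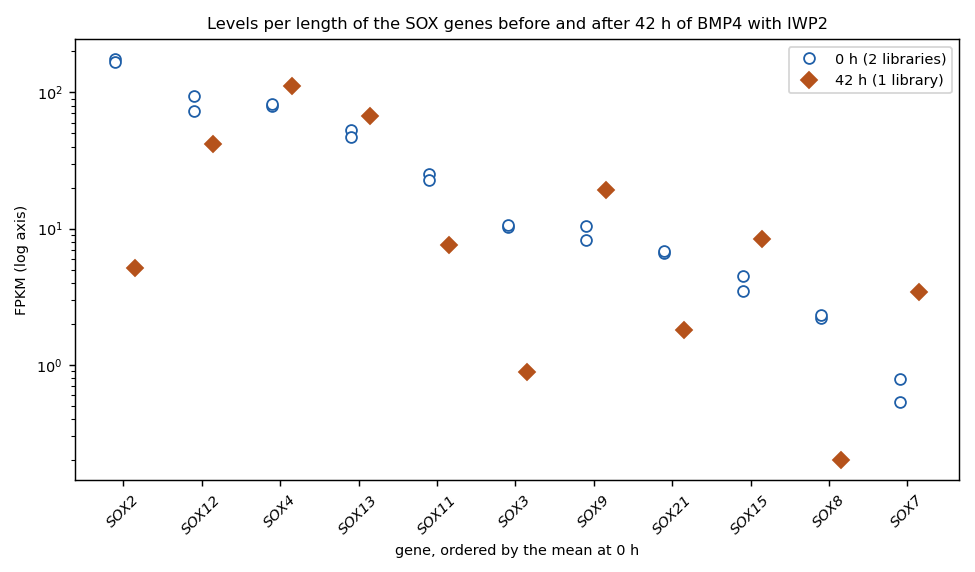
FPKM on a log axis of the 10 SOX genes and SOX2, with both 0 h libraries as open circles and the 42 h library as diamonds. SOX2 moved from the top at 171 FPKM to 5.17 FPKM, whereas SOX4 went from 80.9 to 111 FPKM.

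SOX3 and SOX21 had a like course: both fell within 4 h, stayed low at 12 h, stood near the starting level at 20 and 28 h and were low again at 42 h. SOX3 (ENSG00000134595, 1 exon, X:140502985-140505069, minus strand, GRCh38) had 18.5 and 19.0 CPM at 0 h, and then, in order of the 5 later times, 7.10, 5.80, 16.5, 16.4 and 1.62 CPM. SOX21 (ENSG00000125285, 1 exon, 13:94709622-94712545, minus strand) had 17.5 and 18.2 CPM at 0 h, then 7.99, 7.24, 18.0, 18.4 and 4.77 CPM in the same order. For both genes the 4, 12 and 42 h libraries lay below both 0 h libraries. In edgeR's quasi-likelihood fit of the times with Benjamini-Hochberg adjustment over 15976 genes, the log2 change at 4 h was −1.48 ± 0.34 (SE) for SOX3 (adjusted p = 0.000421) and −1.24 ± 0.33 for SOX21 (adjusted p = 0.00507). They were the members that fell at 4 h, 2 of 10, where 0.632% of all genes fell, and 0 members rose (0 at an unadjusted p under 0.05, and 0 by DESeq2) where 4.39% of all genes did. The median log2 change at 4 h was −0.32 over the members and −0.01 over all genes. At 12 h the same 2 genes were the called members, SOX3 at −1.73 ± 0.34 (adjusted p = 1.07e-05) and SOX21 at −1.34 ± 0.33 (adjusted p = 0.000997), with 2.64% of all genes called falling and 7.04% rising.

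The return between 12 and 20 h and the second fall after 28 h also passed the test. From 12 to 20 h SOX3 rose by 1.58 ± 0.37 on the log2 scale (adjusted p = 0.00194) and SOX21 by 1.39 ± 0.37 (adjusted p = 0.0101), by the same edgeR fit, in a step in which 1.62% of all genes rose. At 20 h their log2 difference from 0 h was −0.15 (95% interval −0.76 to 0.46) and 0.05 (−0.56 to 0.65). From 28 to 42 h SOX3 then fell by 3.17 ± 0.40 (adjusted p = 1.24e-12) and SOX21 by 1.78 ± 0.37 (adjusted p = 7.08e-05), with 6.01% of all genes falling, and SOX7 was the member that rose, where 3.14% of all genes did. The steps from 4 to 12 h and from 20 to 28 h held 0 called members each by edgeR, with 0 and 1 at an unadjusted p under 0.05. In the step from 4 to 12 h 0.782% of all genes rose and 0.582% fell, and in that from 20 to 28 h 0.92% rose and 0.244% fell. These steps, and the contrasts of 12, 20 and 28 h with 0 h, were chosen after the levels were seen. Each later time had 1 library, so the error in these contrasts rests on 1 residual degree of freedom from the 0 h pair and on the variance shared across genes. Tested instead by limma on log2(FPKM + 0.1), the 4 h contrast held 0 called genes of 26349, with 2510 at an unadjusted p under 0.05.

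The RNA on the opposite strand at SOX21 had a like course. SOX21-AS1, a long non-coding RNA whose span overlaps SOX21 without a shared exon base, had 7.01 and 7.54 CPM at 0 h, then 3.24, 2.88, 6.98, 7.94 and 2.45 CPM. Its log2 change at 4 h was −1.25 ± 0.38 (edgeR, adjusted p = 0.0246; lost with DESeq2 at an adjusted p of 0.200) and its change from 12 to 20 h was 1.35 ± 0.42 (adjusted p = 0.0622). Across the 7 libraries, the log2 levels of SOX21 and SOX21-AS1 correlated with Pearson r = 0.99, and SOX3 and SOX21 with r = 0.97, as a description of points that share libraries and depth. Whether counting used strand is not given in the sources used here, so reads of SOX21 and its antisense RNA cannot be told apart where they meet. SOX2 did not share the return: it had 389 and 375 CPM at 0 h and then 242, 222, 149, 62.7 and 11.6 CPM.

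**Figure D2:**
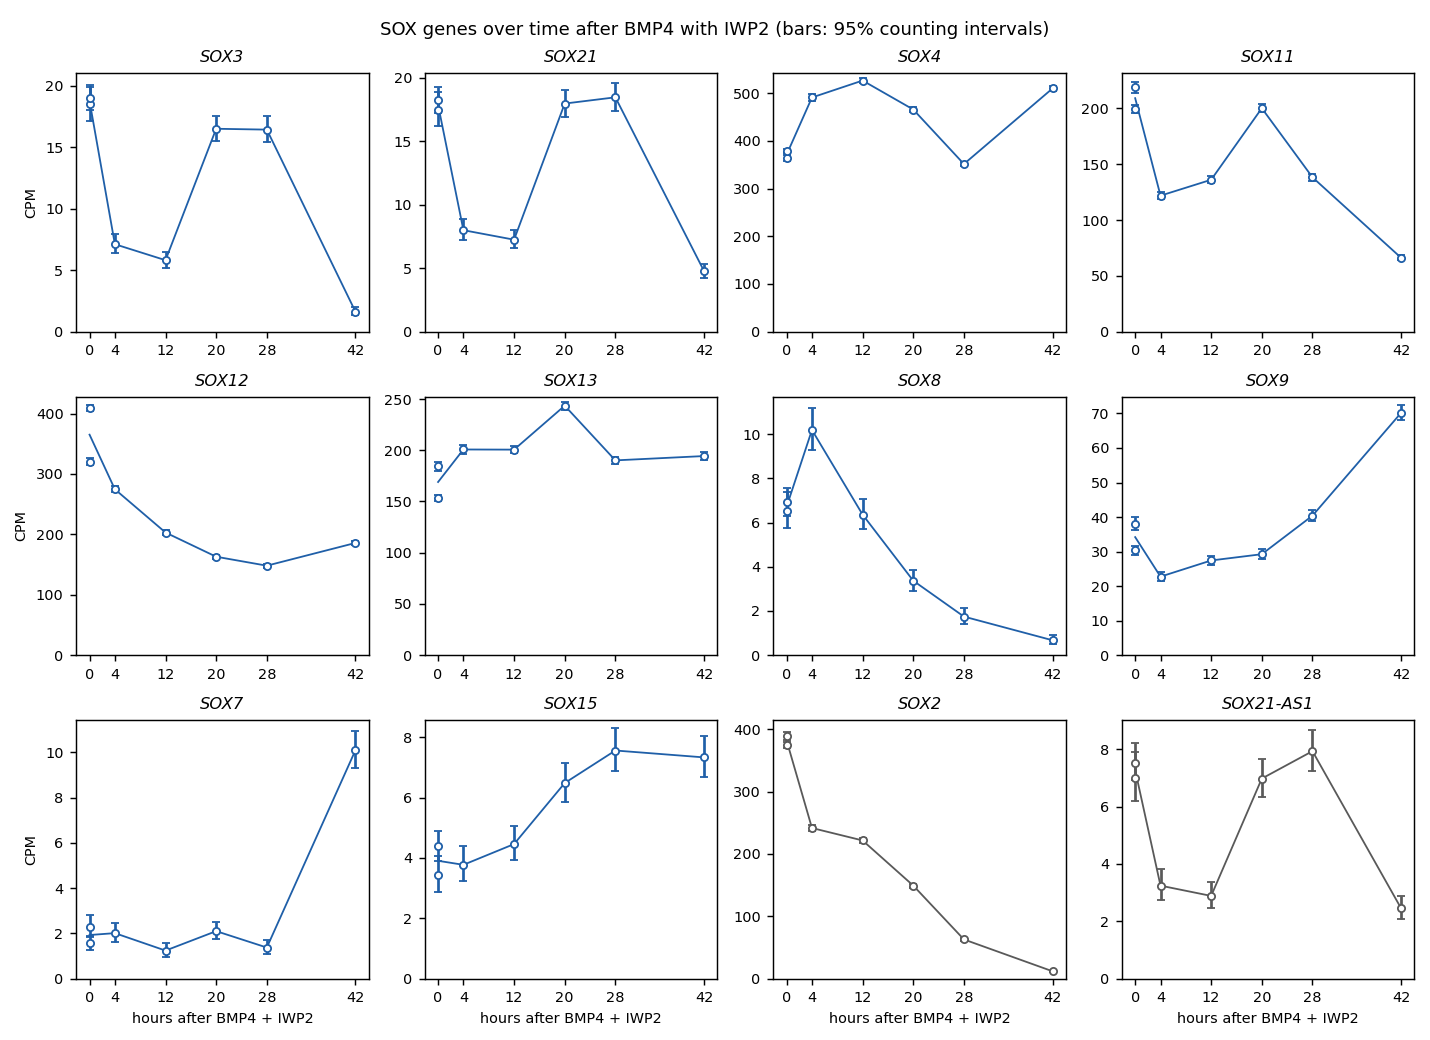
CPM against hours after BMP4 with IWP2 for the 10 SOX genes and, in grey, SOX2 and SOX21-AS1; points are libraries, bars 95% counting intervals, and lines join the 0 h mean to the later times. SOX3, SOX21 and SOX21-AS1 dipped at 4 and 12 h and stood near the start at 20 and 28 h, while SOX8 peaked at 4 h with 10.2 CPM and SOX7 was at 10.1 CPM in the 42 h library alone.

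Of the SOXC genes, SOX11 and SOX12 were lower and SOX4 higher at 42 h than at 0 h, and SOX11 alone passed the test there. SOX11 (ENSG00000176887, 1 exon, 2:5692384-5701385, plus strand) had 219 and 200 CPM at 0 h, then 122, 136, 200.2, 138 and 66.1 CPM. Its levels at 4 and 12 h lay below both 0 h libraries and that at 20 h between them, a dip of the same timing as in SOX3 but not past the threshold (log2 change at 4 h −0.86 ± 0.35, edgeR adjusted p = 0.185). At 42 h SOX11 had fallen by 1.42 ± 0.36 on the log2 scale (adjusted p = 0.000362). SOX12 (ENSG00000177732, 1 exon, 20:325552-330224, plus strand) had 320 and 410 CPM at 0 h, then 275, 203, 163, 148 and 186 CPM, all below both 0 h libraries although these differed by 0.35 on the log2 scale. It passed the test at 20 h (−1.13 ± 0.36, adjusted p = 0.0112) and at 28 h (−1.23 ± 0.36, adjusted p = 0.00413), where 6.01% and 7.04% of all genes fell (12.4% and 13.3% rose). At 42 h its change was −0.74 ± 0.35 (adjusted p = 0.0820). SOX4 (ENSG00000124766, 1 exon, 6:21593751-21598619, plus strand) had 364 and 378 CPM at 0 h, then 491, 526, 466, 351 and 510 CPM. It lay above both 0 h libraries at 4 of the 5 later times, with a log2 change of 0.70 (95% interval 0.04 to 1.35) at 42 h that missed the threshold (adjusted p = 0.0899).

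The SOXE genes SOX8 and SOX9 moved in opposite directions. SOX8 (ENSG00000005513, 16:981770-986979, plus strand) had 6.53 and 6.91 CPM at 0 h, then 10.2, 6.36, 3.37, 1.74 and 0.670 CPM. The 4 h library was the highest of the 7, and each library after it was lower than the one before. SOX8 fell along a line in hours by 0.79 ± 0.11 on the log2 scale per 10 h (edgeR, adjusted p = 0.00125) and from 0 to 42 h its log2 change was −3.09 ± 0.45 (adjusted p = 1.14e-10). The rise at 4 h was 0.52 ± 0.36 and did not pass (adjusted p = 0.766). SOX9 (ENSG00000125398, 17:72121020-72126416, plus strand), which sets up cartilage and testis, had 38.0 and 30.3 CPM at 0 h, then 22.7, 27.4, 29.2, 40.4 and 70.2 CPM. It was below both 0 h libraries at 4, 12 and 20 h and above both at 28 and 42 h. Its log2 change at 42 h was 1.28 ± 0.31 (adjusted p = 0.000203) and its slope 0.30 ± 0.08 per 10 h (adjusted p = 0.0242). Without the 42 h library the slope of SOX9 was 0.11 (adjusted p = 0.483), and without the 4 h library 0.27 (adjusted p = 0.0526). Summed markers of neural crest, a tissue that uses both genes, went from 61.2 and 82.6 CPM at 0 h to 5.25 CPM at 42 h, with PAX3 under 1 CPM at both times. FOXD3 went from 58.0 and 79.5 CPM to 0.490 CPM, and TFAP2B from 0.0263 and 0.0140 CPM to 3.19 CPM; the part of these genes in the result was not tested.

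SOX7 rose in the 42 h library only, and SOX15 rose earlier and stayed. SOX7 (ENSG00000171056, 8:10723768-10730511, minus strand) had 2.29 and 1.56 CPM at 0 h, then 2.01, 1.24, 2.10, 1.37 and 10.1 CPM. The 42 h value stood apart from the others, which overlapped the 0 h pair or lay just below it, and its log2 change was 2.64 ± 0.39 (edgeR, adjusted p = 2.71e-10). The called slope of 0.54 ± 0.15 per 10 h (adjusted p = 0.0254) was −0.083 without that library, and the call was also lost without the 4 h library (adjusted p = 0.0501) or 0 h replicate 2 (adjusted p = 0.0505). PECAM1, CDH5 and SOX18, markers of the endothelium in which SOX7 is known to act, were under 1 CPM in every library. KDR, the other of the 4 endothelial markers, had 68.2 and 60.4 CPM at 0 h, then 61.5, 96.4, 70.9, 29.2 and 6.06 CPM, and the sum of the 4 was 60.7 to 68.5 CPM at 0 h, 30.2 to 97.2 CPM from 4 to 28 h and 6.72 CPM at 42 h; their part in the result was not tested. The SOX7 exons share 1268 bases with the PINX1 entry ENSG00000258724 on the same strand, and that entry reached at most 0.905 CPM here. SOX15 (ENSG00000129194, 17:7588178-7590094, minus strand) had 3.42 and 4.39 CPM at 0 h, then 3.77, 4.46, 6.49, 7.57 and 7.34 CPM. It lay above both 0 h libraries from 12 h on, with counting intervals apart from theirs only from 20 h on. SOX15 passed the edgeR test at 28 h (1.02 ± 0.35, adjusted p = 0.0197), at 42 h (1.14 ± 0.35, adjusted p = 0.00394) and as a slope of 0.32 ± 0.06 per 10 h (adjusted p = 0.00572). DESeq2 gave an adjusted p of 0.166 at 28 h and 0.0580 at 42 h, so both of these calls were lost. SOX15 shares 35 exon bases with MPDU1 on the opposite strand, which reached 75.3 CPM.

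SOX13 (ENSG00000143842, 14 exons, 1:204073115-204127743, plus strand), a SOXD factor known to bind TCF7, passed no test in either series. It had 184 and 154 CPM at 0 h, then 201, 201, 244, 190 and 194 CPM. Every later library was above both 0 h libraries, by a log2 change of 0.44 at 42 h (95% interval −0.21 to 1.09) that did not pass (edgeR, adjusted p = 0.312).

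Counted over all members, 4 of 10 fell (SOX3, SOX21, SOX11 and SOX8) and 3 rose (SOX9, SOX7 and SOX15) from 0 to 42 h, beside 17.8% of all genes falling and 19.9% rising. The median log2 change was −0.15 over the members and −0.01 over all genes. Along hours as a line, 1 member fell (SOX8) and 3 rose, beside 17.5% and 19.2% of all genes, so these shares were not far from the background. All 10 members passed the minimum of a mean of 1 CPM in both series. With library totals in place of TMM the median of all genes at 42 h moved to −0.25, and 2415 genes rose and 3963 fell in place of 3173 and 2851; SOX12 was then called falling as well. By the study's own rule for change over 42 h (a mean of 2.5 CPM and a log2 change past 1 SD, 1.55), SOX3, SOX21, SOX11 and SOX8 were past it downward and SOX7 upward, beside 8.65% and 7.49% of 13651 genes. With TMM factors SOX11 no longer was (−1.42).

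**Figure D3:**
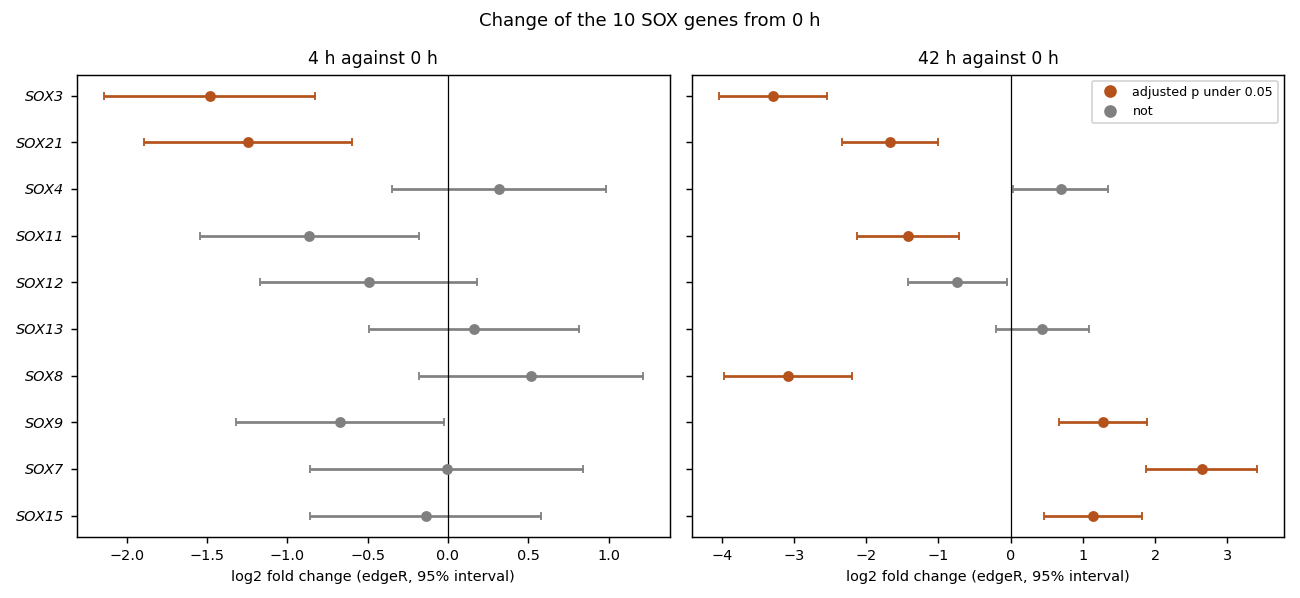
Log2 fold changes of the 10 SOX genes at 4 h and 42 h against 0 h from edgeR, with 95% intervals; orange marks an adjusted p under 0.05. At 4 h SOX3 (−1.48) and SOX21 (−1.24) were past the threshold, and at 42 h 7 genes were, from −3.30 for SOX3 to 2.64 for SOX7.

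With LDN, which lowers the BMP signal, SOX3, SOX11, SOX12 and SOX8 were higher the more inhibitor was given. SOX3 had 3.62 CPM (95% interval 2.96 to 4.38) at 0 nM, 6.06 at 10 nM, 6.15 at 30 nM, 8.62 at 100 nM and 10.7 (9.60 to 11.9) at 300 nM. SOX12 had 144, 182, 212, 252 and 257 CPM and SOX11 99.5, 121, 131, 142 and 156 CPM over the same doses. SOX8 had 6.99, 8.03, 8.79, 10.1 and 10.0 CPM. For SOX3, SOX11 and SOX12 each dose lay above the one before, and for SOX8 each but the highest. As a line over the order of the 5 doses, the log2 change from 0 to 300 nM was 1.42 (95% interval 1.05 to 1.79) for SOX3 (edgeR, adjusted p = 7.69e-05), 0.86 (0.70 to 1.02) for SOX12 (adjusted p = 5.09e-06), 0.62 (0.50 to 0.74) for SOX11 (adjusted p = 6.06e-06) and 0.56 (0.28 to 0.84) for SOX8 (adjusted p = 0.00811). Thus 4 of 10 members rose, beside 10.4% of 14907 genes, and 0 fell (1 at an unadjusted p under 0.05, SOX9; 0 by DESeq2), beside 10.9%. The median slope per dose step was 0.09 over the members and 0.00 over all genes. SOX2 rose by less than these 4 did in their point values, with 338, 380, 405, 422 and 428 CPM (0.35, 0.23 to 0.46; adjusted p = 0.000405); the differences between genes were not tested. Leaving out the 0 nM library ended the call of SOX8 (slope 0.12 per step, adjusted p = 0.0981).

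The other 6 members did not pass along the doses. SOX21 had 2.75, 3.50, 2.77, 3.89 and 4.28 CPM, from 79 to 142 counts, and a change of 0.59 (0.08 to 1.09) from 0 to 300 nM (edgeR, adjusted p = 0.0944). SOX21-AS1 had 0.974, 1.59, 2.37, 2.61 and 2.72 CPM and rose by 1.36 (0.68 to 2.03; adjusted p = 0.00769), a call lost without the 0 nM library (adjusted p = 0.128). SOX9 had 13.01, 13.7, 12.1, 11.7 and 11.1 CPM, a change of −0.26 (−0.50 to −0.03; adjusted p = 0.106). SOX13 spanned 122 to 126 CPM, with an interval of −0.10 to 0.09, and SOX4 293 to 325 CPM, with −0.09 to 0.19. Without the 300 nM library SOX4 was called as rising by 0.05 per step (adjusted p = 0.0449). For SOX7 (24 to 44 counts) the interval ran from −0.65 to 0.97, so a rise of the size seen in SOX8 lay within it. For SOX15 (49 to 94 counts) it ran from −0.91 to 0.48, which holds a fall of that size but not a rise.

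**Figure D4:**
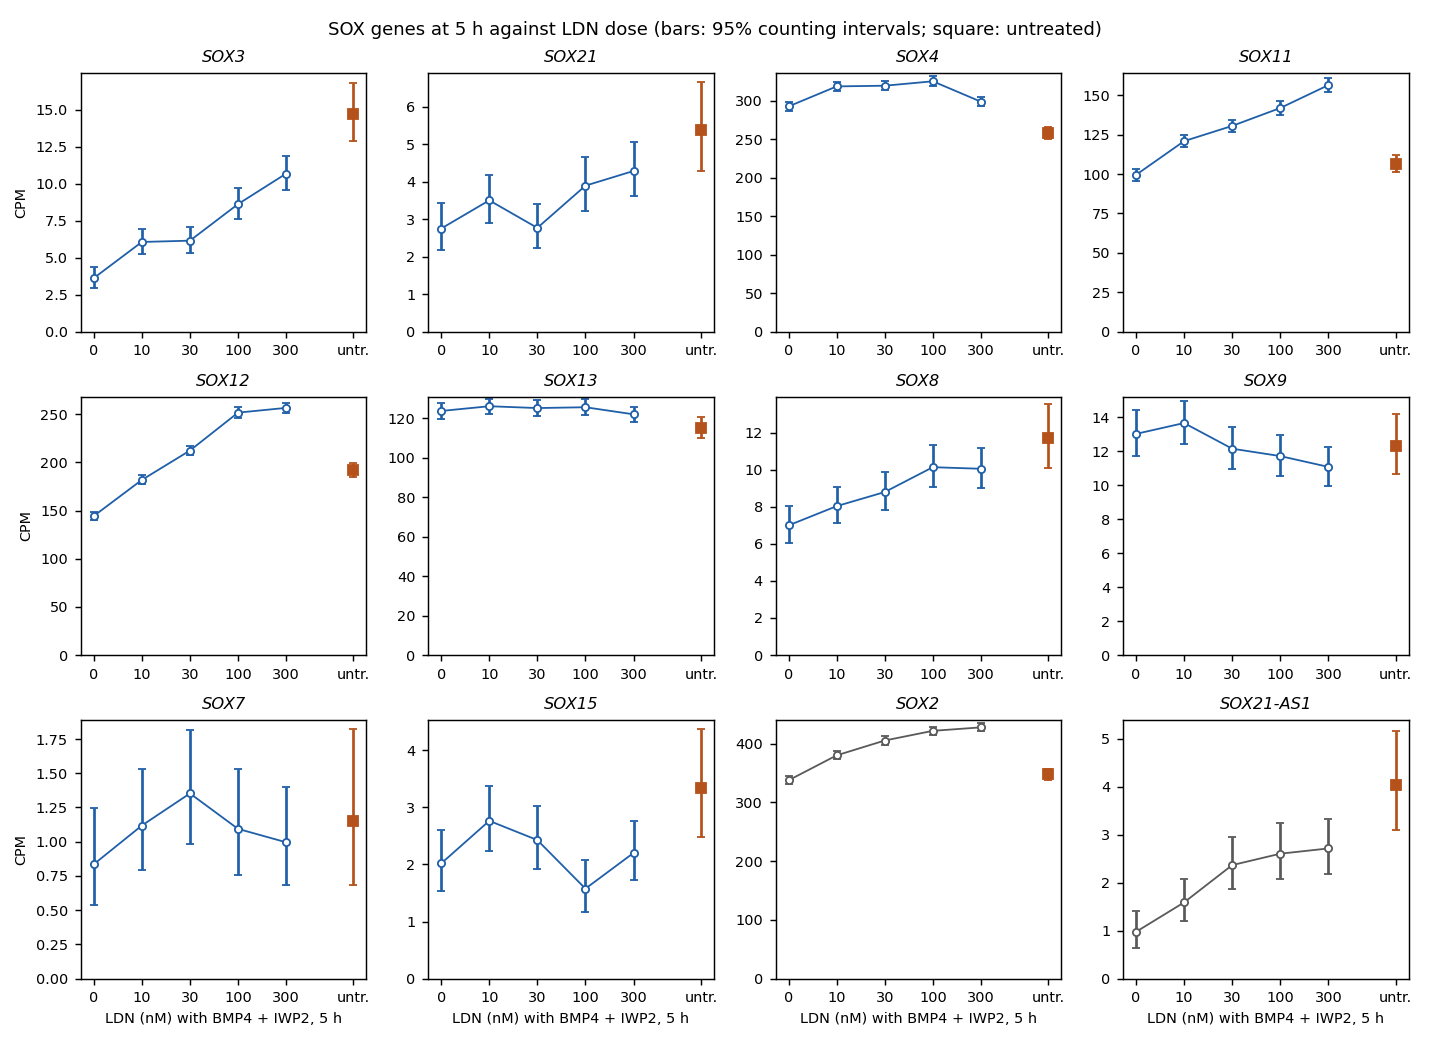
CPM at 5 h against LDN dose with BMP4 and IWP2 for the 10 SOX genes and, in grey, SOX2 and SOX21-AS1; circles are single libraries, the orange square is the untreated library and bars are 95% counting intervals. SOX3 climbed from 3.62 to 10.7 CPM with 14.7 CPM untreated, whereas SOX11 at 300 nM (156 CPM) stood above the untreated library (107 CPM).

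The untreated library lay above all 5 libraries with BMP4 for 4 members (SOX3, SOX21, SOX8 and SOX15), below all for 2 (SOX4 and SOX13) and between them for 4. SOX3 was at 14.7 CPM (12.9 to 16.8) untreated, so that with BMP4 and IWP2 it stood at 24.5% of that level without LDN and at 72.4% with 300 nM LDN. SOX3 was the member past a 2-fold difference between LDN 0 nM and untreated, with a log2 ratio of −1.89 after adding 0.5 CPM, where 1.63% of 14877 genes were past it downward and 4.79% upward; with 1 library each this has no test. The ratio was −0.86 for SOX21, −0.71 for SOX8, −0.61 for SOX15 and −0.41 for SOX12, beside a median of 0.10 over all genes. SOX11 and SOX12 did not follow the order of the doses back to the untreated state. SOX11 was at 156 CPM with 300 nM LDN and 107 CPM untreated, and SOX12 at 257 and 192 CPM. SOX2, at 428 and 348 CPM, SOX4, at 299 and 258 CPM, and SOX13, at 122 and 115 CPM, also stood higher with 300 nM LDN. SOX3, SOX21, SOX8, SOX9, SOX7 and SOX15 stood lower there than untreated in their point values. When the untreated library was added as the last step, SOX11 (adjusted p = 0.312) and SOX12 (adjusted p = 0.107) lost their call and SOX21 gained one (adjusted p = 0.0377). The untreated cells lacked IWP2 as well as BMP4 and LDN, and these cannot be told apart; that library also had the lowest total.

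The sequences before the start sites of SOX3 and SOX12 are shown because these genes passed the dose trend and had an entry among the RefSeq promoters; SOX7, SOX8, SOX9, SOX11 and SOX15 had none. Each is 250 bases ending at the base before the start site, 5′ to 3′ on the strand of the gene, from GRCh38.p14, at chrX:140505070-140505319 (minus strand) for SOX3 and chr20:325302-325551 (plus strand) for SOX12. Capitals mark a match to GGCGCC (a GC-rich SMAD element), CAGAC (a SMAD box), ACAAT (a SOX core) or ATGCAAAT (the POU octamer), each searched on both strands.
SOX3: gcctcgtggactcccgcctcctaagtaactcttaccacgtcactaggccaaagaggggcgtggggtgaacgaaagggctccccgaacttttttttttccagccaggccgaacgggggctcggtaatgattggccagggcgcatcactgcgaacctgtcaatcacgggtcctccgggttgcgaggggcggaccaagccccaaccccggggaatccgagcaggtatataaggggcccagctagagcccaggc
SOX12: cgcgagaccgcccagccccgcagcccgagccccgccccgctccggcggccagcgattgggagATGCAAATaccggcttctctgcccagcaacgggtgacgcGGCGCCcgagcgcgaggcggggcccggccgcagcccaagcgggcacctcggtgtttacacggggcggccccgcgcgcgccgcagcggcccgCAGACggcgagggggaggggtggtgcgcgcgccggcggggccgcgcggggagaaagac
The SOX12 window held ATGCAAAT at 188 to 181 bases before the start, GGCGCC at 149 to 144 and CAGAC at 58 to 54, and the SOX3 window held none of the 4. Of 35114 promoter windows of this length, 1.63% held ATGCAAAT, 16.4% GGCGCC, 38.0% CAGAC and 24.6% ACAAT. G and C made up 79.2% of the SOX12 window and 61.6% of that of SOX3, against a median of 58.0% over all windows. These matches are descriptions of letters and not of binding.

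Most other SOX genes were near the floor. Of 8 further genes of the family, 5 (SOX1, SOX14, SOX6, SOX18 and SOX30) stayed under 1 CPM in every library, SOX17 reached 1.49 CPM at 28 h, and SOX5 and SOX10 were tested. SOX5, a SOXD gene, had 1.92 and 1.53 CPM at 0 h, then 1.92, 5.25, 5.55, 5.06 and 3.68 CPM, and rose from 0 to 42 h by 1.34 ± 0.39 on the log2 scale (edgeR, adjusted p = 0.00279), a call lost with DESeq2 (adjusted p = 0.0532). SOX10, of the SOXE group, stayed between 1.50 and 4.11 CPM, with a log2 change of −0.78 ± 0.44 at 42 h (adjusted p = 0.155). Of 6 non-coding RNAs listed at SOX genes 3 were tested, and along hours SOX2-OT fell by 1.22 ± 0.16 on the log2 scale per 10 h (adjusted p = 0.000902) and CASC15, near SOX4, by 0.54 ± 0.07 (adjusted p = 0.000900). SOX2-OT came down from 5.06 and 4.37 CPM to 3 counts in the 42 h library, and CASC15 from 26.3 and 19.1 CPM to 4.38 CPM.

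Genes for partner proteins were read from a list of 11 POU, PAX, TCF and catenin genes, of which 10 were tested in the time series and 8 in the dose response. At 4 h 2 rose, beside 4.39% of all genes, and 0 fell (POU3F1 at an unadjusted p under 0.05, and 0 by DESeq2), beside 0.632%: TCF7, the SOX13 partner, by 1.18 ± 0.30 (edgeR, adjusted p = 0.00279) and POU3F3 by 4.53 ± 0.53 (adjusted p = 3.16e-15). By 42 h 2 had risen (POU3F3 and CTNNB1) and 3 fallen (POU3F1, POU3F2 and TCF7L1), with a log2 change of −5.15 ± 0.43 for POU3F1 (adjusted p = 2.26e-31), counts near the 19.9% of all genes that rose and the 17.8% that fell. POU5F1, the partner of SOX2 in pluripotent cells, had a log2 change of −0.01 (−0.71 to 0.69) at 42 h. Its 0 h libraries lay apart, at 1003 and 1721 CPM, with the 42 h library between them at 1145 CPM. Along the LDN doses POU3F1 rose by 0.77 (0.51 to 1.02; adjusted p = 0.000503) and TCF7L1 by 0.65 (0.49 to 0.81; adjusted p = 5.09e-05), and TCF7 fell, by a change of −0.61 (−0.91 to −0.31; adjusted p = 0.00753), a call lost without the 300 nM library (adjusted p = 0.191). POU3F1 thus had 16.5 CPM at 0 nM and 30.2 CPM at 300 nM LDN, and SOX3 moved the same way in the same libraries. POU3F2, POU3F3 and PAX6 averaged under 1 CPM along the doses and were not tested there. Among them POU3F3 had 1.77, 1.18, 0.553, 0.257 and 0.0905 CPM from 0 to 300 nM, the last from 3 counts.

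The genes with the nearest profiles were found for the 8 members that averaged 5 CPM or more in the time series, by the root mean square (RMS) difference of centred log2 levels over all 13 libraries, each series centred on its own mean. For SOX3 they were RORB (0.441), SHISA2 (0.449) and P2RY1 (0.458), against a median difference of 0.915 over 11277 genes. For SOX21 they were FZD2 (0.248), TIAM2 (0.268) and SHISA2 (0.301), so SHISA2 stood among the first 3 of both. SOX9 had CAP2 (0.0824), SLC19A2 (0.114) and CALD1 (0.115), and SOX12 DHRS13 (0.142), HMOX1 (0.158) and ADAMTS16-DT (0.176). SOX11 had XYLT2 (0.191), FRAT2 (0.210) and CNKSR3 (0.219), and SOX15 PAQR7 (0.167), TLE5 (0.170) and ACP2 (0.177). The flat SOX13 had KDM2A (0.0463), PRRC2B (0.0485) and MFSD14C (0.0564), and SOX4 CCNF (0.0891) and TNFRSF1A (0.109). The median difference over the candidates was lower for these members than for SOX3. It was 0.599 for SOX21, 0.457 for SOX9, 0.442 for SOX12, 0.447 for SOX11, 0.446 for SOX15, 0.270 for SOX13 and 0.290 for SOX4. With SOX2, SOX8 correlated at r = 0.94 over the 7 time libraries but at r = 0.31 over the 6 of the dose response. In the same order SOX11 correlated with SOX2 at r = 0.84 and 0.98, and SOX12 at r = 0.64 and 0.91. These are again descriptions over shared libraries.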

How the data were processed

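Bulk RNA-seq of 13 libraries was used, 7 of the time series and 6 of the dose response. Per the submitters' processing notes, STAR 2.7.8a aligned the reads to GRCh38 and RSEM 1.3.3 quantified genes, after adapter trimming by the authors; the annotation release and the strand setting are not given in the sources used here. The deposited tables give expected counts from RSEM as integers, and FPKM values that the authors normalized for length and depth. Total counts per library set the precision and were 15600931 to 71333471.

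Samples were grouped by their labels. CPM on library totals, with exact 95% Poisson intervals, was computed from the counts. edgeR 4.0.16 (quasi-likelihood test, TMM, minimum mean of 1 CPM, Benjamini-Hochberg adjustment over all genes, threshold 0.05) was fitted within each series: hours as a line (5 residual degrees of freedom), time as a factor (1) and the order of the LDN doses as a line (3). No time after 0 h and no dose had a replicate, and the sources do not say that the 0 h pair came from separate cultures, so p-values may measure technical spread. LDN 0 nM against untreated was a ratio after adding 0.5 CPM, without a test. The rule on change over 42 h added 0.01 CPM. Alternatives were DESeq2 1.42.0 (size factors, Wald test), library totals, no filter, limma 3.58.1 on log2(FPKM + 0.1), the order of times, the study's SMAD4 signal as the dose covariate, the untreated library added and each library left out. R 4.3.3 and Python 3.11.15 were used. On simulated data with known changes, the time trend called 95 of 97 genes changed by 1 on the log2 scale (15901 genes, 9 false calls). The dose trend called 86 of 96 (14832 genes, 3 false calls) and the 4 h contrast 86 of 98 (15904 genes, 4 false calls). The spread in those data was set to a dispersion of 0.01 for every gene. Whether this matched the spread between the libraries used here was not tested, so these shares may not hold for them. In the 4 h contrast of the libraries, SOX11 had a log2 change of −0.86 and did not pass (edgeR, adjusted p = 0.185).

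The members, the lists of other SOX, partner and neighbouring genes and the markers were chosen with earlier results of these data known. Named genes were all members, those lists, SOX2 and, for members averaging 5 CPM or more in the time series, the 3 nearest profiles, of which 1 is not reported here. Positions and overlaps are from GENCODE 44 (GRCh38), promoters from RefSeq (GRCh38.p14). Protein sequences were not used here.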

Additional observations from a re-analysis of the deposited data

Results flagged for a closer look

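SOX8 stood out because its early change had opposite signs in both experiments, with counting intervals apart in each. In the time series it was 10.2 CPM (95% counting interval 9.28 to 11.2) at 4 h, above 6.53 (5.75 to 7.40) and 6.91 (6.31 to 7.55) CPM at 0 h, a log2 ratio of 0.60 to their mean. In the dose response it was 6.99 CPM (6.06 to 8.03) after 5 h of BMP4 with IWP2 and 11.7 CPM (10.1 to 13.6) untreated, a log2 ratio of −0.75. By edgeR the rise of SOX8 at 4 h did not pass the threshold. SOX9 also had opposite signs, with log2 ratios of −0.59 at 4 h and 0.08 at 5 h, but its counting intervals at 5 h were not apart. The difference between the experiments was not tested, since each arm had 1 library except 0 h. They also differed in extraction kit, library preparation and baseline (cells at 0 h against cells kept in medium for 5 h), which cannot be told apart.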

How the results depend on the processing

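The 2 falls at 4 h, the 4 falls and 3 rises at 42 h and the 4 rises with LDN stayed within 1.5 times their counts under DESeq2 size factors, the DESeq2 Wald test, library totals and no filter, and the LDN rises also with the SMAD4 signal; so did the counts of members past 2-fold at 5 h and past the study's rule under each alternative run. With limma on FPKM the counts were 0 falling at 4 h, and 0 rising and 0 falling at 42 h. Along hours, the rising members numbered 1 with limma on FPKM or the order of the times, and the falling ones 2 with these, the DESeq2 Wald test or library totals. Leaving out 1 library gave 1 to 3 rising and 1 to 2 falling members along hours, and 3 to 5 rising and 0 falling along the doses.

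Of single members, 307 comparisons with an alternative kept their direction and side of the threshold, 22 lost a call, 8 gained one and 13 changed sign, all of these with a difference that was not called in the alternative. Leaving out libraries, the time slopes (log2 per 10 h) ran from −0.57 to 0.028 for SOX3, −0.27 to 0.11 for SOX21, −0.21 to 0.12 for SOX21-AS1, −0.083 to 0.63 for SOX7 and −0.13 to 0.17 for SOX10, the sign turning without the 42 h library. The dose slopes (log2 per step) ran from −0.024 to 0.051 for SOX4, −0.013 to 0.011 for SOX13, −0.079 to 0.14 for SOX7, −0.049 to 0.11 for SOX2-OT, −0.10 to 0.018 for CASC15 and −0.036 to 0.076 for SOX10. With the untreated library added the dose slope was −0.020 for SOX4 and 0.061 for SOX15, without a filter it was 0.0026 for SOX13, and with limma on FPKM −0.013 for SOX2-OT. At 4 h the log2 change of SOX7 was 0.076 with library totals and 0.067 with limma on FPKM, that of SOX15 0.032 and that of SOX10 0.0012 with limma on FPKM. The cause of these changes was not tested.

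No paired analysis was possible because only the 0 h libraries carry replicate numbers. Contrasts of times were not refitted without a 0 h library, which leaves no residual degree of freedom, nor without later libraries. Single libraries at each dose and later time limit every call to a fit over the series, and SOX7 and SOX15, at 18 to 94 counts in the dose response, are limited by depth.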
